A study of Homo sapiens with 30 samples.

Results

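Open chromatin was compared between a prostate epithelial line carrying active AKT alone and the same line carrying active AKT and ERG. The sites described are those of the 33000 peaks of lowest p-value in one line that overlapped none of the first 41833 peaks of the other, 41833 being the length of the shorter list on chromosomes 1 to 22, X and Y. They number 8970 of the 100080 peaks in both lists: 3873 gained sites, taken from RWPE1-ERG+mAKT cells, and 5097 lost sites, taken from RWPE1+mAKT cells. Of the gained sites, 1967 overlapped no RWPE1+mAKT peak of any rank, and the others overlapped one ranked below 41833. RWPE1 is an immortalized line from normal human prostate epithelium, grown here in keratinocyte medium with EGF and pituitary extract. RWPE1+mAKT cells had received 2 retroviral vectors, the empty vector pQCXIH and pBabe-Puro carrying myristoylated AKT, a form that is anchored to the membrane and stays active. RWPE1-ERG+mAKT cells had received pQCXIH-ERG and the same AKT vector, so both lines carried active AKT and differed by design in ERG. Both were populations selected with hygromycin and puromycin. ATAC-seq was conducted once per line on 50000 cells, RNA-seq on 3 libraries per line that the authors pooled into 1 FPKM value per gene, and ERG binding was mapped by ChIP-seq in the line with both. With 1 ATAC-seq library per line there was no replicate error, so no test was possible. Intervals below are 95% Wilson intervals, cover counting error only, and treat sites of 1 library as independent.

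ATAC-seq uses a transposase that inserts adapters where DNA is free of nucleosomes, so that peaks mark promoters, enhancers and other regulatory DNA. ERG is a transcription factor of the ETS family, which binds sequences around GGAA, often beside AP-1 sites for JUN and FOS proteins, and it is expressed in a large share of prostate cancers after fusion to an androgen-driven promoter. AKT is the kinase activated by PI3K, and it keeps FOXO transcription factors out of the nucleus. In basal prostate epithelium p63 and GRHL factors bind enhancers of keratin and junction genes, and CTCF binds boundaries of chromatin loops.

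The following windows of 300 bases, read from the plus strand of the hg19 (GRCh37) reference at the centres of sites, show what was gained and lost. Capitals mark letters of 4 motifs on either strand: ETS (AGGAAGT or CGGAAGT), AP-1 (TGACTCA or TGAGTCA), FOX (TGTTTAC or TATTTAC) and the 2-part p53/p63 motif. Windows of this length at all top 33000 peaks of both lists held them in 12.5%, 24.0%, 8.27% and 9.46% of cases. The first 3 are gained sites taken in the order of the fold enrichment of their ERG ChIP peak, with 1 chromosome not drawn on. Gained site 1 (chr21:39755381-39755816) lies on a coding exon of ERG itself, where vector-borne ERG and the chromosomal gene cannot be told apart. Gained site 2 (chr9:92171327-92171995) lies 47931 bp from GADD45G. Gained site 3 (chr20:30262760-30262971) lies in an annotated intron, within a locus listed for 2 genes of which ABALON is the first by name. Of these 3 windows only that of gained site 2 holds one of the motifs, a FOX motif.
gained site 1: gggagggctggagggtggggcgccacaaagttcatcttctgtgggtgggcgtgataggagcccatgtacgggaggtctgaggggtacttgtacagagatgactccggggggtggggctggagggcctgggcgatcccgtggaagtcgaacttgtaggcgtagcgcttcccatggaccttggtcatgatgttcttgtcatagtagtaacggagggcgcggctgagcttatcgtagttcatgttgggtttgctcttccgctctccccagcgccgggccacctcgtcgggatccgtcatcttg
gained site 2: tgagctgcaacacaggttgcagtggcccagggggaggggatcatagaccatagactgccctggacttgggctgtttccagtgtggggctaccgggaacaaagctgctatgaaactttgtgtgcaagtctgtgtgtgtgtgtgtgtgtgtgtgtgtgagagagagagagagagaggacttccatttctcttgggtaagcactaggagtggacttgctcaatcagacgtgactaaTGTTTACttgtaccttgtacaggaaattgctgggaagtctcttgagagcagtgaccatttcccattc
gained site 3: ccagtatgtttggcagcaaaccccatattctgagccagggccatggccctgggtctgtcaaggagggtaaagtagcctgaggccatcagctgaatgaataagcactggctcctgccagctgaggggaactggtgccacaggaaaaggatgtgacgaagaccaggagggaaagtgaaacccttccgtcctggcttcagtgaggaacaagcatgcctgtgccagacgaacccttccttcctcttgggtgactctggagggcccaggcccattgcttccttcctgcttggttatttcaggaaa

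The next 2 are gained sites at MET (chr7:116412580-116412920, intronic) and EGFR (chr7:55063621-55063955, 22769 bp from the gene), which encode growth factor receptors. Both overlapped an ERG ChIP peak, and they were chosen after their letters were seen. The MET window holds 2 AP-1 motifs, 1 FOX motif and 1 p53/p63 motif, and the EGFR window holds 1 AP-1, 1 ETS and 1 FOX motif. The windows at the like sites of SGK1 and LIMCH1 held none of the ETS, AP-1 or FOX letters.
MET gained site: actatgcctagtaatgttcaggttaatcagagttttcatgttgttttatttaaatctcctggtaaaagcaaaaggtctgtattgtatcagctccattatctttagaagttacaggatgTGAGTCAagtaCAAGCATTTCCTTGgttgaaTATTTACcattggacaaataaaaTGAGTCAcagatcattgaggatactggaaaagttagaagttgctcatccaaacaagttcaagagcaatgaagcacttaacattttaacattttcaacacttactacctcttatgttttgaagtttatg
EGFR gained site: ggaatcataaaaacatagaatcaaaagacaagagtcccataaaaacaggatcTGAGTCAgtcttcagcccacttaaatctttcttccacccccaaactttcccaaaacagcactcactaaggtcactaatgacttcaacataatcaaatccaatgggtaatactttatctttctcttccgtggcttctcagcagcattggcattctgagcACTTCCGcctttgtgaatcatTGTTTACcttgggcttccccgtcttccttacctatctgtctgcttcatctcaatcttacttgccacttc

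The last 3 are lost sites taken in the order of their p-value by the same rule, all between genes. Lost site 1 (chr20:47134537-47135014) lies 105778 bp from PREX1, lost site 2 (chr9:111371555-111372333) lies 244535 bp from ACTL7B, and lost site 3 (chr12:132039750-132040448) lies 155183 bp from SFSWAP. Lost site 1 holds a p53/p63 motif and lost site 2 an ETS motif, and lost site 3 holds none of the 4.
lost site 1: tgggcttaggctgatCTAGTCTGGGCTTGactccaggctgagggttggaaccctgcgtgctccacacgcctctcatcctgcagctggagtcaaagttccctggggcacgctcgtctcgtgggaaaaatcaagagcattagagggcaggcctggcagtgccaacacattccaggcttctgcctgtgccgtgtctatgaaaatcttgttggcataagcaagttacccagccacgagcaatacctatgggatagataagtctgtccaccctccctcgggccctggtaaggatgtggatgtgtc
lost site 2: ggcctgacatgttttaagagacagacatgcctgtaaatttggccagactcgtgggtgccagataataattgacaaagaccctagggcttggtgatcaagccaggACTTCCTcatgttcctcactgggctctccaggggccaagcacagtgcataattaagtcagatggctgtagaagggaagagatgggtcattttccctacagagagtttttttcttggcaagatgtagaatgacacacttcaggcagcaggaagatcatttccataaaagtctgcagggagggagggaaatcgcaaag
lost site 3: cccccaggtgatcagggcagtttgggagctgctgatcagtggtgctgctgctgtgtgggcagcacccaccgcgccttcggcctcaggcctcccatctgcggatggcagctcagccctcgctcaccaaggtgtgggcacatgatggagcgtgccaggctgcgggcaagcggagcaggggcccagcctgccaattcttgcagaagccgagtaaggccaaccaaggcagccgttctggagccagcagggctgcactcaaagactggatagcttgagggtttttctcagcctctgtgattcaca

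The lists differed in depth as well as in line. The RWPE1+mAKT list held 57999 peaks over 35.1 Mb, from 35688481 fragments per its header, and the RWPE1-ERG+mAKT list held 42081 peaks over 23.7 Mb. The lowest background in the fold enrichments was 2.77 fragments per base for RWPE1+mAKT and 2.22 for RWPE1-ERG+mAKT, a ratio of 0.804. Ranks were used for that reason, and the part of depth in the gained and lost sites was not tested. At rank 33000 the −log10 p-value was 13.7 in the RWPE1+mAKT list and 8.09 in the RWPE1-ERG+mAKT list, and at the next rank it was the same to 3 digits. The RNA carried basal epithelial markers, with KRT5 at 3642 and 3519 FPKM and TP63 at 39.2 and 38.0 FPKM in RWPE1+mAKT and RWPE1-ERG+mAKT cells. Luminal keratins were high as well, with KRT18 at 987 and 958 FPKM and KRT8 at 671 and 921 FPKM, and the luminal factor FOXA1 stood at 3.28 and 3.19 FPKM. The androgen-responsive luminal gene KLK3 was listed at 0 in both.

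Most open sites were common to both lines. Of the top 33000 peaks of RWPE1-ERG+mAKT cells, 79.5% (79.1 to 79.9%) overlapped a top 33000 peak of RWPE1+mAKT cells by at least 1 bp. With every peak used, 89.4% of RWPE1-ERG+mAKT peaks overlapped a peak of RWPE1+mAKT cells, and 64.4% of RWPE1+mAKT peaks overlapped one of RWPE1-ERG+mAKT cells. Gained sites were 11.7% of the 33000 in RWPE1-ERG+mAKT cells and lost sites 15.4% of the 33000 in RWPE1+mAKT cells. Against all 57728 RWPE1+mAKT peaks on these chromosomes, 1967 sites were gained, and the lost sites stayed 5097, since the RWPE1-ERG+mAKT list ends at the length used for both.

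Gained and lost sites were weak peaks. Of the 3300 strongest RWPE1-ERG+mAKT peaks 4 (0.121%) were gained, and of the 3300 weakest of the 33000, 1203 (36.5%). The lost sites ran from 6 of 3300 (0.182%) to 1288 of 3300 (39.0%) in the same way. The median fold enrichment over background was 5.16 at gained sites and 6.28 at lost sites, against 6.50 and 6.86 at the shared sites of RWPE1-ERG+mAKT and RWPE1+mAKT cells. Median widths were 333 bp at gained, 364 bp at lost, and 523 bp and 633 bp at shared sites.

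**Figure D1:**
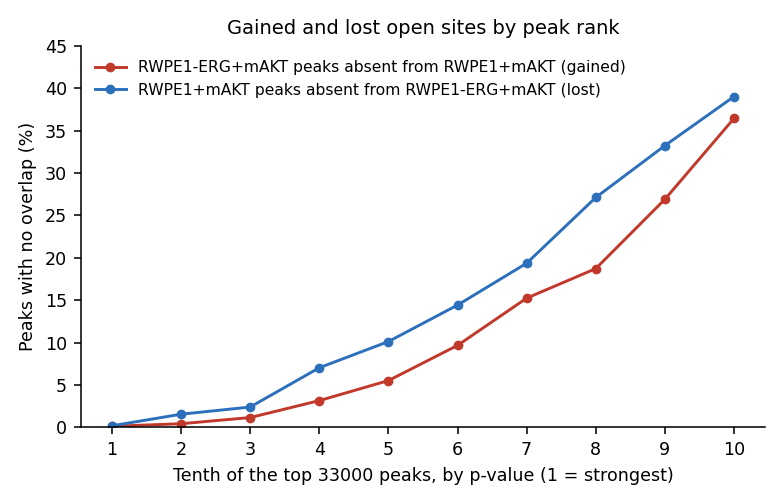
Share of peaks with no overlap among the first 41833 peaks of the other list (y axis, %) in successive groups of 3300 of the top 33000 peaks ordered by p-value (x axis, strongest first), with 1 library per line. Both curves climb from under 1% in the strongest group to 36.5% of RWPE1-ERG+mAKT peaks and 39.0% of RWPE1+mAKT peaks in the weakest.

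A few strong sites stood out. The gained site of highest fold enrichment (14.6) was a peak of 200 bp on an annotated exon in BTRC (chr10:103124589-103124788), a subunit of a ubiquitin ligase, with rank 78 of its list and an ERG ChIP peak over it. It had no peak in RWPE1+mAKT or RWPE1-ERG cells at any rank, and its pileup of 219 fragments was far above the median of 20.7 at gained sites. The next 2 were far from the nearest gene of the expression table: chr6:104850385-104850818 lay 325149 bp from HACE1 (fold enrichment 12.6), and chr2:123506186-123506552 lay 980758 bp from TSN (11.7), in an annotated intron. Both were open in RWPE1-ERG cells and neither had an ERG ChIP peak. The lost sites of highest fold enrichment were chr2:92109240-92109791 (12.0), 19367 bp from the pseudogene ACTR3BP2, chr11:37342556-37342816 (12.0), 661715 bp from C11orf74, and chr17:37534001-37534238 (12.0) in an intron of FBXL20. Only the last of these was open in RWPE1-ERG cells, and none had an ERG ChIP peak.

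ERG ChIP peaks lay on a larger share of gained than of lost sites. Lost sites by rule had no ATAC-seq peak in the line of the ChIP, which favours that order. An ERG ChIP peak of RWPE1-ERG+mAKT cells overlapped 226 of 3873 gained sites (5.84%, 5.14 to 6.62%), 33 of 5097 lost sites (0.647%, 0.461 to 0.908%) and 1145 of 26234 shared sites of RWPE1-ERG+mAKT cells (4.36%, 4.12 to 4.62%). The ChIP was made in the line from which the gained sites were taken. In bins of fold enrichment under 5, 5 to 6, 6 to 7 and 7 or more it was 5.56%, 5.61%, 5.83% and 7.84% at gained sites, and 1.51%, 0.506%, 0.590% and 0.351% at lost sites. In peaks under 300 bp wide it was 4.77% at gained, 0.498% at lost and 2.04% at shared sites. Away from gene starts it was 6.09% at gained, 0.640% at lost and 5.64% at shared sites, where the intervals of gained and shared sites overlapped (5.34 to 6.93% and 5.30 to 5.99%). Most ERG peaks were weak: 450 of the 9113 had a q-value of 0.01 or below, and these overlapped 42 gained sites and 1 lost site. Gained sites took 2.52% of all ERG ChIP peaks and lost sites 0.362%, against 13.3% on shared sites.

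How often gained and lost sites were open in RWPE1-ERG cells, which carry ERG without active AKT, depended on the peaks counted. Of gained sites 68.7% (67.3 to 70.2%) overlapped an ATAC-seq peak of RWPE1-ERG cells, of lost sites 65.9% (64.6 to 67.2%), and of shared sites 97.1%. Among the top 33000 peaks of RWPE1-ERG cells the order was reversed, with 23.9% (22.5 to 25.2%) of gained and 35.8% (34.5 to 37.1%) of lost sites. Of the 1967 gained sites without a RWPE1+mAKT peak of any rank, 55.9% (53.7 to 58.1%) overlapped any RWPE1-ERG peak, fewer than of lost sites. With sites called from top 33000 against top 33000 peaks, 77.6% of gained and 71.9% of lost sites did. Gained sites with an ERG ChIP peak were open in RWPE1-ERG cells in 187 of 226 cases (82.7%, 77.3 to 87.1%), and those without in 67.9% (66.3 to 69.4%).

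**Figure D2:**
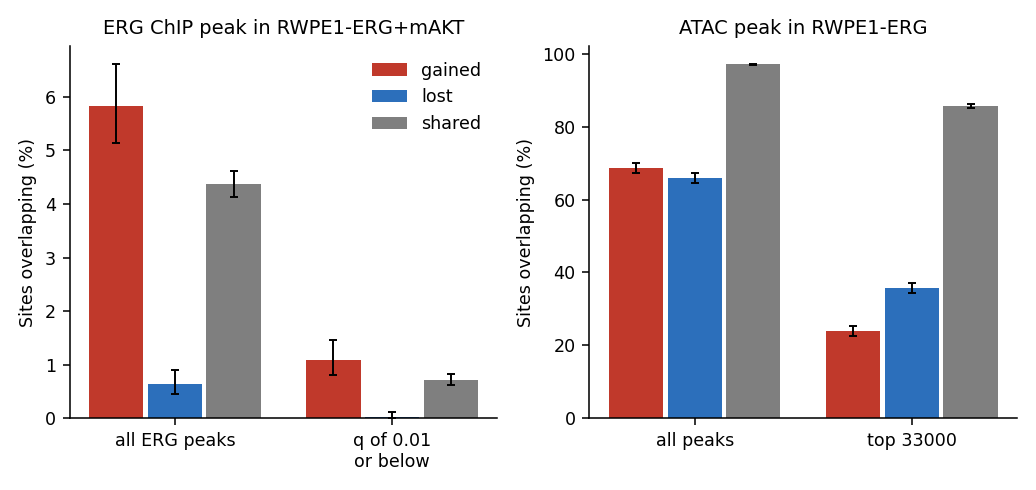
Share of gained, lost and shared sites (shared: peaks of RWPE1-ERG+mAKT cells) that overlap an ERG ChIP peak of RWPE1-ERG+mAKT cells (left) or an ATAC-seq peak of RWPE1-ERG cells (right), in %, with bars for 95% Wilson intervals. ERG peaks lie on 5.84% of gained, 4.36% of shared and 0.647% of lost sites, which by rule had no ATAC-seq peak in that line. Openness in RWPE1-ERG cells differs little between gained and lost sites with all peaks (68.7% and 65.9%). With the top 33000 it is lower at gained sites (23.9% and 35.8%).

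The letters under the sites differed between gained and lost. In windows of 200 bp at peak centres, the ETS motif was present in 11.4% (10.5 to 12.5%) of gained and 4.98% (4.42 to 5.62%) of lost sites, against 9.28% (8.93 to 9.64%) of shared sites and 8.77% of all top 33000 peaks of both lists. A wider gap was seen for the forkhead motif FOX, bound by FOXO and FOXA proteins: 14.0% (12.9 to 15.1%) of gained sites held it, 4.96% (4.40 to 5.59%) of lost and 4.81% (4.56 to 5.08%) of shared sites, with 5.38% over all. AP-1 was frequent at both, in 1017 of 3873 (26.3%, 24.9 to 27.7%) gained and 1123 of 5097 (20.9 to 23.2%) lost sites, against 18.0% of shared sites and 18.3% of all.

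Lost sites carried the p53/p63, GRHL, CTCF, C/EBP-ATF4 and E-box letters more often than gained sites. The p53/p63 motif, which is bound by the basal regulator p63, was present in 12.2% (11.3 to 13.1%) of lost, 6.40% (5.67 to 7.22%) of gained and 6.14% of shared sites, with 6.63% over all. The grainyhead motif GRHL (AACCGGTT, AACCTGTT or AACAGGTT) was present in 2.16% (1.79 to 2.59%) of lost and 0.749% (0.522 to 1.07%) of gained sites (1.01% over all). The CTCF core was present in 1.61% (1.30 to 1.99%) of lost and 0.207% (0.105 to 0.407%) of gained sites (0.636% over all). The C/EBP-ATF4 letters TGATGCAA were present in 1.73% of lost and 0.878% of gained sites (0.936% over all), and the E-box CAGCTG in 14.7% and 10.3% (12.5% over all). TEAD (GGAATG), with 17.7% at gained and 19.2% at lost sites (15.2% over all), and RUNX (TGTGGT), with 14.1% and 15.3% (11.6% over all), had overlapping intervals. The NF-kB motif, with 2.87% at gained and 3.10% at lost sites (4.57% over all), did too. ISRE, the interferon response element, was at 3.05% of gained and 1.86% of lost sites (2.25% over all). KLF/SP (GGGCGG), typical of promoters, was at 10.7% of gained, 7.63% of lost and 28.9% of shared sites (25.2% over all). A window could count for several motifs, and copies could overlap.

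Base composition moved with these counts, at 46.5% GC in gained, 49.3% in lost and 56.0% in shared windows. Within windows of 40 to 50% GC, AP-1 was at 471 of 1432 gained (30.5 to 35.4%), 562 of 2251 lost (23.2 to 26.8%) and 2180 of 6740 shared sites (31.2 to 33.5%), so that gained and shared sites had overlapping intervals and lost sites were lower. The ETS motif was at 15.6% of gained, 5.42% of lost and 8.89% of shared sites, FOX at 15.2%, 5.78% and 8.28%, and p53/p63 at 8.73% of gained, 14.9% of lost and 740 of 6740 shared sites. In windows of 50 to 60% GC the ETS motif was at 60 of 566 gained (8.32 to 13.4%), 81 of 1806 lost (3.62 to 5.54%) and 615 of 6380 shared sites (8.94 to 10.4%), with overlapping intervals for gained and shared sites. In these windows FOX was at 41 of 566 gained, 65 of 1806 lost and 267 of 6380 shared sites. The FOX share was higher at gained sites that were not open in RWPE1-ERG cells (18.2%, 16.1 to 20.4%) than at those that were (12.1%, 10.9 to 13.4%), while ETS was at 10.7% and 11.8%. At the 226 gained sites with an ERG ChIP peak, ETS was at 15.9% (11.7 to 21.3%), FOX at 11.1% and RUNX at 19.5% (14.8 to 25.1%). At the 33 lost sites with one, 9 held the ETS motif (27.3%, 15.1 to 44.2%).

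**Figure D3:**
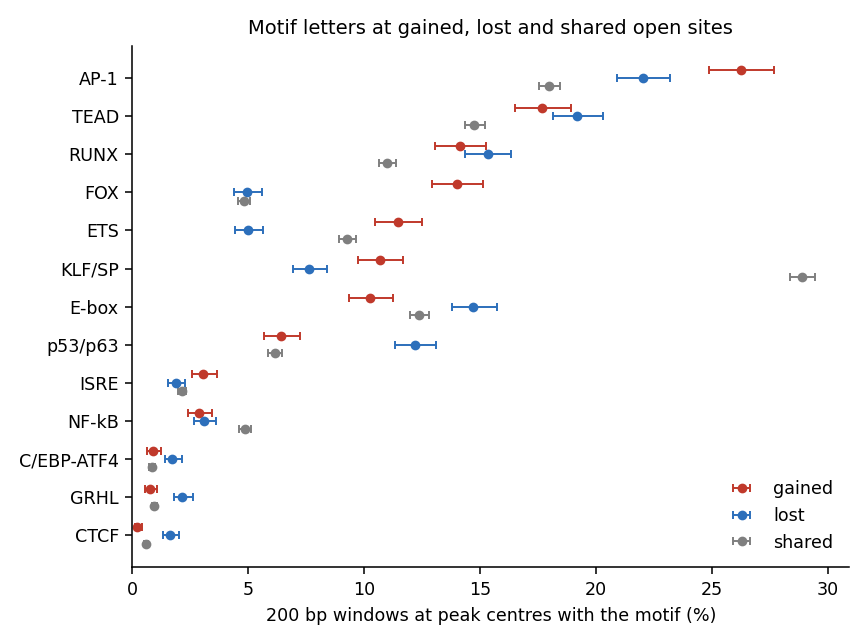
Share of 200 bp windows at the centres of gained, lost and shared sites (shared: peaks of RWPE1-ERG+mAKT cells) that hold each motif on either strand (x axis, %; bars are 95% Wilson intervals). FOX (14.0% against 4.96%) and ETS (11.4% against 4.98%) are higher at gained than at lost sites, and p53/p63, GRHL and CTCF are higher at lost sites.

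Sites open in both lines varied little in strength, but those bound by ERG leaned to RWPE1-ERG+mAKT cells. Among 25943 shared peaks paired one to one, with log2 ratios of fold enrichment centred on their median, the quartiles were −0.18 and 0.16. A total of 6 pairs (0.0231%) were at least 2-fold higher in RWPE1-ERG+mAKT cells and 34 (0.131%) at least 2-fold lower. The 1133 pairs with an ERG ChIP peak had a median log2 ratio of 0.11 (quartiles −0.04 and 0.25), and 69.1% of them were above the overall median, against 49.1% of the pairs without. The median was 0.09 for the 180 ERG-bound pairs near a gene start (0.03 without ERG) and 0.11 for the 953 elsewhere (−0.03 without ERG). Away from gene starts, pairs with the FOX motif had a median of 0.04 and pairs with the ETS motif 0.02, while pairs with the p53/p63 motif had −0.05 and the 110 pairs with the CTCF core −0.12. These medians are small beside the quartiles. Pileup was not divided by the local background. Its log2 ratios were centred in the same way, on a median of −0.607, beside −0.0335 for fold enrichment. By centred pileup, 101 ERG-bound pairs (8.91%) were at least 2-fold higher and 11 lower, against 593 (2.29%) and 725 (2.79%) of all pairs.

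**Figure D4:**
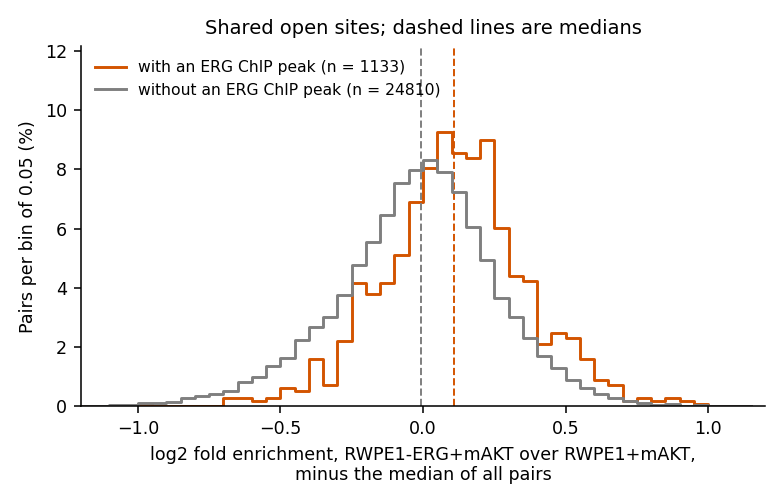
Log2 ratio of MACS2 fold enrichment at 25943 shared peaks, RWPE1-ERG+mAKT over RWPE1+mAKT, centred on the median of all pairs (x axis), as the share of pairs in bins of 0.05 (y axis, %). Dashed lines are medians, at 0.11 for the 1133 pairs with an ERG ChIP peak and −0.01 for the 24810 without and the distributions overlap over most of their range.

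Gained and lost sites both lay mostly away from promoters. The centre was within 1 kb of an annotated gene start at 9.66% (8.77 to 10.6%) of gained, 5.04% (4.47 to 5.68%) of lost and 34.8% of shared sites of RWPE1-ERG+mAKT cells. Introns held 52.3% of gained and 53.8% of lost sites, and 32.1% and 35.2% lay between genes. The chromosomes did not share them evenly. Chromosome 22 held 3.10% of gained but 0.961% of lost sites (1.97% of shared), and chromosome 7 held 7.23% and 3.34% (5.10% of shared). Chromosome 19 held 1.55% and 3.12% (4.80% of shared), and chromosome 20 held 2.66% and 4.10% (3.13% of shared). Copy number of these chromosomes was not tested. Without chromosomes 7 and 22, left out after the counts were known, ERG ChIP peaks lay on 6.28% of gained and 0.656% of lost sites.

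Some sites clustered. Bins of 1 Mb with 5 or more sites of 1 kind and none of the other numbered 18 for gained and 61 for lost sites. The densest gained bin, on chromosome 7 from 116000001 to 117000000, held 10 gained sites among 14 shared ones and includes MET. Next were bins on chromosome 22 (43000001 to 44000000) and on chromosome 7 (3000001 to 4000000), with 8 gained sites each. The densest lost bins lay on chromosome 16 (56000001 to 57000000) and on chromosome 19 (11000001 to 12000000), with 10 lost sites each and 13 and 33 shared ones. Some gained bins lay beside centromeres, as on chromosomes 1 (121000001 to 122000000), 5 (49000001 to 50000000), 10 (39000001 to 40000000) and X (61000001 to 62000000). Repeats make alignment uncertain there, and no blacklist removal is stated for ATAC-seq.

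Genes were assigned by distance to their span in the expression table. Where several genes share a listed locus, the first by name took all its sites and the others count as having neither kind. The 3873 gained sites fell to 2923 genes and the 5097 lost sites to 3772, of 26244, which is 11.1% and 14.4% of the table. Of the sites, 53.4% of gained and 48.0% of lost lay inside a span, and 21.5% and 19.7% lay over 50 kb away. A total of 1973 genes (7.52%) had gained sites only, 2822 (10.8%) lost sites only, and 950 both.

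Median expression differences were much alike in genes with gained, lost or no such sites. Among the 12346 genes with at least 1 FPKM in either line, the median log2 ratio of RWPE1-ERG+mAKT over RWPE1+mAKT, computed on FPKM + 1, was −0.07. It was −0.06 for the 971 expressed genes with gained sites only, −0.08 for the 1377 with lost sites only, −0.07 for the 491 with both and −0.07 for the 9507 with neither. At least 2-fold higher FPKM was seen for 257 of all expressed genes (2.08%), for 6 of the 971 with gained sites only (0.618%) and for 26 of the 1377 with lost sites only (1.89%). At least 2-fold lower FPKM was seen for 110 (0.891%), 10 (1.03%) and 11 (0.799%). Genes of small RNAs, shorter than a sequenced fragment, made up 149 of the 257 and 67 of the 110. With these left out, which was decided after seeing the values, 108 of 11926 genes (0.906%) were 2-fold higher, and 3 of these had gained sites only (2.78%, 0.949 to 7.85%) and 21 lost sites only (19.4%, 13.1 to 27.9%), against 8.04% and 11.4% of the 11926 genes. Another 43 (0.361%) were 2-fold lower, of which 5 had gained sites only (11.6%, 5.07 to 24.5%) and 6 lost sites only (14.0%, 6.56 to 27.3%). The 114 expressed genes with an ERG-bound gained site had a median of −0.01 (quartiles −0.25 and 0.13), with 4 at least 2-fold higher and 3 at least 2-fold lower.

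The genes with the most gained sites were expressed at similar levels in both lines. GMDS, an enzyme of GDP-fucose synthesis, and SPIN4, a chromatin reader, had 6 gained sites each (and 2 and 0 lost ones), with 11.7 and 10.6 FPKM for GMDS and 7.62 and 6.24 FPKM for SPIN4 in RWPE1+mAKT and RWPE1-ERG+mAKT cells. The GMDS sites were intronic, while those of SPIN4 lay 703635 to 883713 bp from it, together beside the centromere of chromosome X, with fold enrichments of 2.26 to 5.14. MET, the receptor of hepatocyte growth factor, had 5 gained sites and no lost one, 1 of them with an ERG ChIP peak, and stood at 36.0 and 32.6 FPKM. TLE1, a corepressor, had 5 gained sites and 1 lost site at 16.3 and 16.7 FPKM, and its gained sites lay 47767 to 587732 bp from the gene. AKAP2 had 5 gained and 2 lost sites, ANKRD34A 5 and 4, NSMCE2 4 and 2, and FAM49B 4 and 1, with 2 of the FAM49B sites bound by ERG. The FPKM of these 4 was lower by 1.14-fold to 1.60-fold in RWPE1-ERG+mAKT cells. ANKRD34A, AKAP2 and FAM49B took the sites of loci listed for 35, 3 and 2 genes, so their counts are uncertain.

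Genes with the most lost sites also showed small differences. KAZN, a junction protein of epidermis, had 8 lost sites and none gained, all in annotated introns but 4 of them outside its listed span, and its FPKM was 2.94 in RWPE1+mAKT and 4.96 in RWPE1-ERG+mAKT cells. WWOX, a large gene at a fragile site, had 7 lost sites at 3.63 and 3.53 FPKM. SASH1, TMEM189 and BCL6, a transcriptional repressor, had 6 lost sites each beside 3, 1 and 1 gained ones, and CRYL1, RAD51B and PARD3, a polarity protein, had 5. The FPKM of these 6 differed between the lines by 1.01-fold to 1.32-fold. The 6 lost sites of BCL6 lay 4420 to 107217 bp from the gene and each was open in RWPE1-ERG cells.

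Genes with gained sites only were ranked at 5 FPKM or more in the higher line and above 0.5 FPKM in the lower. That left out ERG, at 0.435 FPKM in RWPE1+mAKT and 328 FPKM in RWPE1-ERG+mAKT cells. Of those ranked, the genes with the largest expression differences upward were led by a matrix and a membrane protein. SMOC1, the matrix protein, stood at 3.67 FPKM in RWPE1+mAKT and 9.40 FPKM in RWPE1-ERG+mAKT cells, with a gained site over its listed start (chr14:70345982-70346395, fold enrichment 7.02) and another in an intron. TM4SF1, the membrane protein, stood at 19.3 and 38.6 FPKM, with a gained site 14741 bp away (fold enrichment 8.50). MCAM, an adhesion molecule of endothelium and carcinoma, stood at 3.12 and 6.36 FPKM. LIMCH1, an actin-associated protein, stood at 3.36 and 6.71 FPKM, and SGK1, a kinase related to AKT, at 14.7 and 25.3 FPKM. The gained sites of LIMCH1 and SGK1 each overlapped an ERG ChIP peak. ARVCF, a catenin (3.34 and 6.55 FPKM), ADAM8, a metalloprotease (3.40 and 6.37 FPKM), and ENTPD2, an ectonucleotidase (10.1 and 17.3 FPKM), completed the 8. All 8 were also higher in RWPE1-ERG than in RWPE1+mAKT cells by the authors' pooled FPKM, from 4.54 FPKM for ARVCF to 48.8 FPKM for TM4SF1. They were chosen for their rise over the same RWPE1+mAKT values, which favours this result. The share of all expressed genes that were higher in RWPE1-ERG cells was not counted.

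Other genes with gained sites only had lower expression in RWPE1-ERG+mAKT cells. RAMP1, a partner of the calcitonin-like receptor, stood at 25.1 FPKM in RWPE1+mAKT and 8.07 FPKM in RWPE1-ERG+mAKT cells, with an intronic gained site. DUSP6, a phosphatase that turns off ERK, stood at 74.8 and 32.5 FPKM, with gained sites 22796 and 110468 bp away. The rule also named MIR6807 (26.4 and 6.35 FPKM) and MIR1914 (29.0 and 12.2 FPKM), whose transcripts are too short for stable FPKM.

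Genes with lost sites only included basal and ERK-linked genes with lower expression. KRT14, a keratin of basal cells, stood at 2527 FPKM in RWPE1+mAKT and 1185 FPKM in RWPE1-ERG+mAKT cells, with a lost site over its start (chr17:39743083-39743485, fold enrichment 3.11). In RWPE1-ERG cells, where that site was open, KRT14 stood lower still, at 700 FPKM. KCNMA1, a potassium channel, stood at 46.4 and 18.4 FPKM with 3 intronic lost sites. ETV5, an ETS factor downstream of ERK, stood at 12.3 and 4.42 FPKM with 1 intronic lost site. That site was open in RWPE1-ERG cells, where ETV5 stood at 12.5 FPKM. CD40, a receptor of immune and epithelial cells, stood at 13.9 and 6.56 FPKM with 3 lost sites 2326 to 14813 bp away, each open in RWPE1-ERG cells. PITPNC1, a lipid transfer protein (19.4 and 7.81 FPKM), ABCC3, an export pump (7.14 and 2.82 FPKM), and the long RNAs LINC00707 (8.28 and 3.36 FPKM) and SNHG5 (721 and 382 FPKM) completed the 8.

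Within the FPKM limits of the naming rule, which left out ERG, the largest expression differences upward beside lost sites exceeded those beside gained ones. S100A8, a calcium-binding protein of inflamed epidermis, stood at 13.9 FPKM in RWPE1+mAKT and 137 FPKM in RWPE1-ERG+mAKT cells. Its lost site, over its start (chr1:153363362-153363720), was a peak of low rank (32429) that only just entered the RWPE1+mAKT peaks used. In RWPE1-ERG cells, where that site was open, S100A8 stood at 1.60 FPKM. SAA1 (33.8 and 154 FPKM) and SAA2 (1.19 and 5.95 FPKM), acute-phase proteins, had 1 and 2 lost sites, and their near-identical sequences may share reads. GDF15, a stress-induced cytokine, stood at 6.56 and 22.9 FPKM with a lost site, also of low rank (31687), over the start of its listed span. Of genes with both kinds of site, named after their values were seen, IGFBP3 stood at 3.31 and 13.7 FPKM with sites 359891 bp or more away, TFPI at 1.27 and 6.75 FPKM, and NRG1, a ligand of ERBB receptors, at 8.73 and 3.25 FPKM with 1 ERG-bound gained site.

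The list of migration genes and ERK-responsive ETS and AP-1 targets held gained sites more often than the table as a whole. Of its 33 genes in the table, 14 had gained sites only (42.4%, against 7.52% of all genes). Another 6 had lost sites only (18.2%, against 10.8%) and 2 had both. Their median span was 13.7 kb, beside 29.1 kb for all genes. The distance to neighbouring genes was not taken into account. Some gained sites lay far from the gene, as at DUSP6 (110468 bp) and SPRY2 (132868 bp). Of its 26 expressed genes 19 had lower FPKM in RWPE1-ERG+mAKT cells, near the 64.2% of all expressed genes that did, with a median log2 ratio of −0.39 beside −0.07 for all genes, and 2 were at least 2-fold lower. The ERK phosphatases DUSP4 (17.7 and 9.40 FPKM) and DUSP5 (39.98 and 23.7 FPKM), the ERK inhibitor SPRY2 (5.53 and 3.85 FPKM) and the EGFR ligand AREG (8.66 and 4.84 FPKM, with 3 gained sites) had gained sites only. The 11 expressed genes with gained sites only had a median of −0.45 and the 6 with lost sites only, ETV4, ETV5, SPRY4, SPRED2, EREG and IL1A, −0.82. IL1B, with an ERG-bound gained site, stood at 42.0 and 44.6 FPKM.

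The epidermal differentiation list showed the opposite sites. Of its 30 genes, none had gained sites only, 11 had lost sites only (36.7%, against 10.8% of all genes) and KRT10 had both, with a median span of 4.32 kb. Of its 23 expressed genes 18 had higher FPKM in RWPE1-ERG+mAKT cells, against 35.8% of all expressed genes, with a median log2 ratio of 0.69, and 9 were at least 2-fold higher. Of the 7 expressed genes with lost sites only, 4 were at least 2-fold higher. They were S100A8, CALML5 (1.14 and 4.55 FPKM), the envelope protein IVL (1.64 and 4.43 FPKM, with a lost site 20364 bp away) and SPRR2D (2.40 and 6.30 FPKM, 27 bp). Of the 15 expressed genes with neither kind of site 5 were 2-fold higher, among them S100A9 (51.6 and 691 FPKM). KLK5, a protease of the skin surface, went the other way, at 3.87 and 1.46 FPKM beside a lost site. Many genes of this list lie side by side in clusters and share a neighbourhood.

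**Figure D5:**
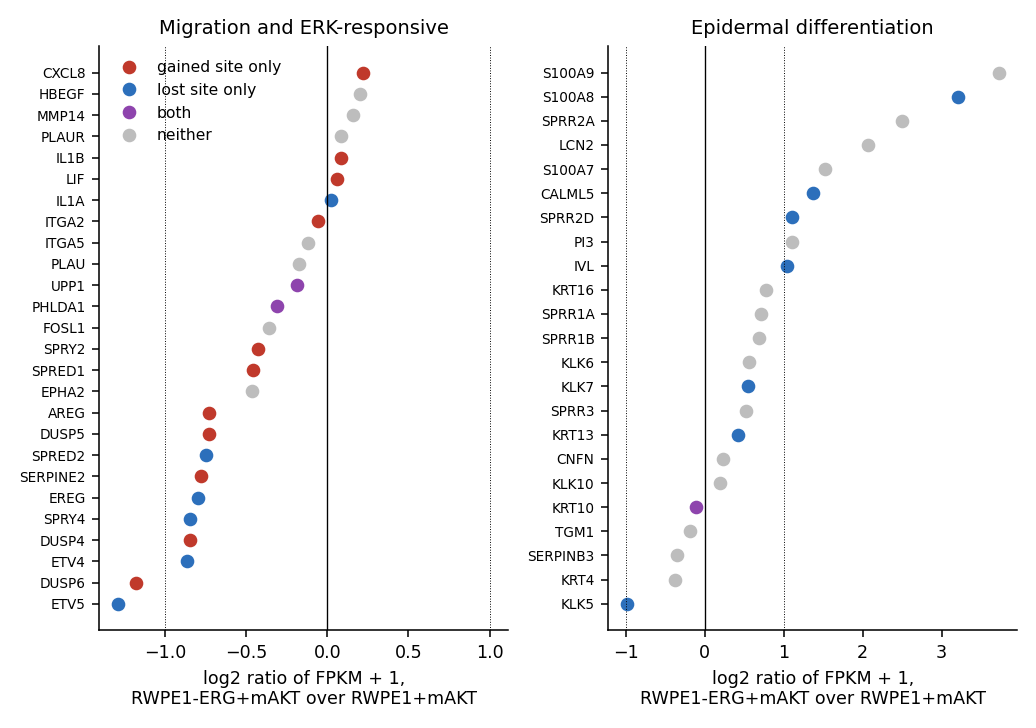
Log2 ratio of FPKM + 1, RWPE1-ERG+mAKT over RWPE1+mAKT, from the authors' pooled FPKM (x axis), for each expressed gene (y axis) of the migration and ERK-responsive list (left, 26 genes) and the epidermal differentiation list (right, 23 genes), coloured by the kinds of site assigned to it, with dotted lines at 2-fold. On the left 19 of 26 genes lie below 0 (64.2% of all expressed genes do) and red points (gained site only) are common, and on the right 18 of 23 lie above 0 (35.8% of all) and blue points (lost site only) are common.

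The counts of the other lists are to be read against 7.52% of all genes with gained sites only, 10.8% with lost sites only, 64.2% of expressed genes lower and 35.8% higher. Of 20 basal genes 4 had lost sites only and 2 gained sites only (EGFR with 3 gained sites, at 55.4 and 46.4 FPKM, and PDPN), and 14 of 19 expressed were lower. COL17A1 (170 and 76.8 FPKM) had neither kind of site, and ITGA6 (116 and 67.2 FPKM) had a lost one. The basal keratin KRT15 (53.8 and 280 FPKM), also with neither kind, was the 1 basal gene at least 2-fold higher, beside 3 at least 2-fold lower. Of 25 luminal genes, with a median log2 ratio of 0.36, 1 had gained sites only and 2 lost sites only, and 11 of 14 expressed were higher, ELF3 (5.57 and 23.4 FPKM) and MUC1 (1.48 and 4.89 FPKM) at least 2-fold and without either kind of site. TMPRSS2, the usual fusion partner of ERG, had 2 gained sites at 56787 and 75142 bp and 0.0149 and 0.0536 FPKM. Of 25 mesenchymal genes 5 had lost sites only (VIM, ZEB2, TWIST2, COL5A1 and TNC) and 3 gained sites only: FN1 (53.4 and 23.8 FPKM, with a gained site at its start), SNAI2 (54.9 and 35.0 FPKM) and TGFBI (115 and 116 FPKM, 1 site bound by ERG). Of 30 interferon genes 25 of 29 expressed were higher, with a median log2 ratio of 0.51 and 3 lost sites, at ISG15 (58.1 and 98.9 FPKM), IFI6 (19.2 and 38.7 FPKM) and MX2. Of 22 endothelial genes that ERG controls in vessels, 3 were expressed, while 3 had gained sites only and 6 lost sites only. Of 27 ETS genes 2 had gained sites only and 5 lost sites only, of 17 AP-1 genes 1 and 2, and of 25 AKT and FOXO response genes 2 and 5, with 4 gained sites at CCND1 (68.7 and 56.7 FPKM) and 5 lost sites at SLC2A1 (67.7 and 74.2 FPKM). FOXO1 had 1 of each kind at 2.75 and 4.29 FPKM.

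The genes of the constructs checked the labels. ERG stood at 0.435 FPKM in RWPE1+mAKT, 328 FPKM in RWPE1-ERG+mAKT and 358 FPKM in RWPE1-ERG cells. Its 2 gained sites were also open in RWPE1-ERG cells, and 1 of them, gained site 1 above, lay on a coding exon, where vector-borne ERG and the chromosomal gene cannot be told apart. ERG ChIP peaks lay on 4 places of ERG coding sequence, and ATAC-seq peaks of RWPE1+mAKT cells on 0. AKT1 stood at 156 FPKM in RWPE1+mAKT, 281 FPKM in RWPE1-ERG+mAKT and 64.2 FPKM in RWPE1-ERG cells, with no peak on its coding exons in any line and a lost site 585 bp from its span. The level of AKT1 RNA therefore differed between the lines compared as well as that of ERG, and its part in the sites was not tested. DLG1 (16.4 and 14.4 FPKM) had a lost site 62957 bp away, and IL4R (20.7 and 17.6 FPKM) had neither kind.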

How the data were processed

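ATAC-seq libraries were prepared with a kit from 50000 cells per line. Per the study's methods the authors aligned reads to hg19 with Bowtie2, removed duplicates with Picard and called broad peaks with MACS2 (2.2.7.1 per the header of the RWPE1+mAKT list). Removal of blacklisted regions is stated for ChIP-seq and not mentioned for ATAC-seq. The deposited lists give a pileup signal, a fold enrichment over background (a ratio), and −log10 p-values and −log10 q-values for each peak. The p and q columns of the RWPE1-ERG+mAKT and RWPE1-ERG lists have lost their names and were read by place. ERG ChIP peaks, also deposited, were called from 10306483 reads against 14670664 input reads. The deposited FPKM values were made by the authors with TopHat2 and Cuffdiff from polyA-selected RNA, pooled over 3 libraries per line. Fold changes, p-values and q-values of that table are the authors' own comparisons and were not used.

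Peaks were ranked by p-value and compared by overlaps of at least 1 bp. Sites went to the nearest gene by locus, ties to the shorter span and then to the first by name. Site counts of named genes such as ARVCF and KCNMA1 (4 genes per locus) and AKAP2, TMEM189 and BCL6 (3 genes per locus) depend on this. The locus column merges overlapping genes, 8899 genes share one, 295 lie outside the chromosomes used, and 9 genes without a usable value were left out. Log2 ratios used a pseudocount of 1, which understates low genes, and genes with at least 1 FPKM in either line. Gene starts, exons and introns came from the GENCODE annotation mapped to GRCh37, and 0 peaks lay beyond a chromosome end. Motifs were counted in 200 bp windows, the p53/p63 motif as 2 copies of C, A or T, A or T, G, set 6 bases apart. The rule for the genes named took the 8 with the most gained and lost sites, the construct genes and members of 10 lists. It also took those with the largest FPKM differences beside sites of 1 kind. For these the higher line had 5 FPKM or more and the lower line above 0.5 FPKM. The sites, lists and genes were chosen with earlier results of these data known. On simulated data, overlaps and nearest genes of 400 intervals had 0 differences from a direct count, and 500 of 500 planted motifs were found. Sequences were read with pysam 0.24.0, tables with pandas 2.3.3 under Python 3.11.15, and plots were drawn with matplotlib 3.10.9. The ATAC-seq list attached to a VCaP label was not used. A few sites and genes that these rules name are not reported here.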

Additional observations from a re-analysis of the deposited data

How the results depend on the processing

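No paired analysis was possible because the ATAC-seq comparison has 1 library per line and the RNA values are pooled over libraries. With 20000 peaks of each list, the overlap was 78.7% and there were 684 gained and 1215 lost sites. An overlap of 50% of both peaks gave 73.2%. Against every peak of the other list there were 1967 gained sites. A distance of 500 bp in place of overlap and a q-value of 0.01 or below, which every deposited peak passed, left the counts within 1 site. With pileup in place of fold enrichment, centred in the same way, the median log2 ratio at ERG-bound shared sites was 0.21. Of all pairs, 593 and 725 in place of 6 and 34 were then at least 2-fold higher and lower. Comparing top 33000 with top 33000 peaks gave 4655 genes with gained sites, ERG ChIP peaks on 4.86% of gained and 0.928% of lost sites, the ETS motif at 10.5% of gained sites and AP-1 at 23.5% of gained and 19.3% of lost sites. With ERG peaks of q-value 0.01 or below, the shares were 1.08% and 0.0196%. Windows of 400 bp held ETS at 19.2% and 9.85% and AP-1 at 37.5% and 31.2% of gained and lost sites. Within 5 kb of gene starts lay 20.4% and 15.4%. Top 33000 peaks of RWPE1-ERG cells covered 23.9% and 35.8%. Without the filter on FPKM, median log2 ratios at genes with gained or lost sites only were −0.0073 and −0.011, beside −0.013 for all genes. Gene spans from GENCODE and leaving out small RNA genes, both chosen after the data were seen, gave medians of −0.06 and −0.06 for genes with gained sites and −0.08 and −0.08 for genes with lost sites. The order of gained and lost shares was kept in each of these settings, except for openness in RWPE1-ERG cells. Most gained and lost sites were weak peaks, and 1 library per line gives no measure of how often such peaks recur.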
